A study of Homo sapiens with 4 samples.

Results

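The genes described here are 8 small leucine-rich proteoglycans (DCN, LUM, BGN, FMOD, OGN, PRELP, ASPN and OMD) together with SPARC and its relative SPARCL1, 10 secreted matrix genes in all of 19775 genes on the array. Their members are all 25 probe sets that the platform annotation assigns to one of these symbols, of 54613 probe sets tested. The genes were chosen by measured values among others, their knockdown and control levels on these arrays being known, so their values below are a description and carry no test. The samples were SH-SY5Y cells, a human neuroblastoma line, 72 h after RNA interference. The TSPAN8 knockdown group (2 arrays) received small interfering RNA against TSPAN8 through the Accell delivery system. The transfection control group (2 arrays) was kept for the same time under control conditions, and the reagent it received is not stated in the labels. All 4 arrays thus share 1 cell line, and nothing in the labels says whether the 2 samples of a group were separate cultures, so the spread between them may be only technical.

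Small leucine-rich proteoglycans are compact secreted proteins built from repeated leucine-rich segments, most of which carry sulfated sugar chains. They bind collagen fibrils, set their width and spacing, and hold growth factors such as TGF-beta in the matrix. SPARC (osteonectin) and SPARCL1 (hevin) bind calcium and collagen and tune the contact between cells and matrix. Mesenchymal cells are the best known source of most of these proteins. In neuroblastoma, SPARC is known as a product of Schwann cells that restrains vessel growth, and in brain SPARCL1 is an astrocyte protein that promotes synapse formation.

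Expression was available as log2 values, 1 per probe set and array, in which a difference of 1 is a doubling of signal. TSPAN8, the silenced gene, had 6.25 and 6.35 on the knockdown arrays, against 7.52 and 7.62 on the controls. Its difference, knockdown minus control, was -1.27 ± 0.062 (SE; limma, adjusted p = 0.0026), so the labels and the target went together on every array. This SE, like every SE below unless stated otherwise, is limma's moderated standard error, which draws the spread of each probe set towards that typical of all probe sets. For 14 of the 25 member probe sets it was smaller than the SE from their own 4 arrays, among them 10 of the 11 of DCN, LUM and SPARC, and for the other 11 it was larger. It was the only probe set to pass an adjusted p of 0.05. Knockdown array 1 stood apart from the other 3 arrays. On it, 26 probe sets lay at least 0.5 above the highest of the other arrays and 3 lay as far below the lowest. The same counts were 1 and 0 for knockdown array 2, 0 and 0 for control array 1, and 2 and 0 for control array 2. The differences of DCN, LUM and SPARC are therefore given array by array for their probe sets above the array median, and also without knockdown array 1. The arrays give signal from whole cultures, so a change in the number of expressing cells and a change in RNA per cell cannot be told apart.

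Marker levels were compared with the array median, a bar that does not by itself identify a cell type. Of 10 measured noradrenergic neuroblastoma markers, 9 were above the array median on all 4 arrays, among them the transcription factors PHOX2A, GATA3 and ISL1. The exception was TH, tyrosine hydroxylase, which read between 5.92 and 6.12 over the 4 arrays, below the medians of 6.58 to 6.61. Of 13 fibroblast markers 9 were above the array median on all arrays, of 6 Schwann cell markers 2, of 6 endothelial markers 1 and of 5 macrophage markers 1. SOX10, the defining Schwann cell factor, read 6.70 and 6.67 on the knockdown arrays, against 6.65 and 6.72 on the controls. These values were only just above the array medians, on all 4 arrays.

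The promoter of SPARC is shown because SPARC, with DCN and LUM, had one of the 3 highest differences among the members' brightest probe sets (those with the highest mean over the 4 arrays), and that of SPARCL1 because it is its closest relative among the members and read below the array median. Both run from 250 bases before to 50 bases after the RefSeq start (GRCh38.p14, minus strand), SPARC at chr5:151686866-151687165 and SPARCL1 at chr4:87529327-87529626, and capitals mark GGAGGA.
SPARC: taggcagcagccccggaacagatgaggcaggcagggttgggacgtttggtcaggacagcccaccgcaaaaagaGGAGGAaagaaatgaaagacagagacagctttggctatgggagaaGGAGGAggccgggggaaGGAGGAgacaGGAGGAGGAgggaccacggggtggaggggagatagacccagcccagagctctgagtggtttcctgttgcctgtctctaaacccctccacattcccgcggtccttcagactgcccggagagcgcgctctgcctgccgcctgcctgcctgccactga
SPARCL1: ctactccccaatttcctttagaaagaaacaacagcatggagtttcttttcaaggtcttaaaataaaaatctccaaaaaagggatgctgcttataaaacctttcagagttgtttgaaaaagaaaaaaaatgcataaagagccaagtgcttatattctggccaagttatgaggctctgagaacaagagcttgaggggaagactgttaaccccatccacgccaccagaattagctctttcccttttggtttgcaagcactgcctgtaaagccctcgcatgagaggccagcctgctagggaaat
GGAGGA, searched on both strands with overlaps counted, matched 5 times in the SPARC window and 0 times in the SPARCL1 window. Of 35116 promoters of this length 36.6% held it at least once and 0.846% held it at least 5 times. The motifs were chosen by hand and 5 is the count of SPARC itself, so these shares are no test of SPARC. Matches were counted anywhere in the window, whatever their distance from the start, so they do not show a working element. The TATA box letters TATAAA, present in 11.5% of promoters, matched 1 time in SPARCL1 and 0 times in SPARC. So did CCAAT, present in 34.6%. The GC box GGGCGG (45.0% of promoters) and the AP-1 site TGANTCA (7.71%) matched 0 times in both. The GC content was 61.3% for SPARC and 41.7% for SPARCL1, against a median of 58.7%. RefSeq promoter sequences matched 7 of the 10 genes, and DCN, LUM and OMD did not match. PRELP held 4 GGAGGA matches and BGN 1, while FMOD, OGN and ASPN held 0.

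Of the 25 probe sets, 9 were above the array median on all 4 arrays, called bright below: 4 of DCN, both of LUM, both of SPARC and 1 of PRELP. The other 16 were below it on all 4 arrays, between 5.57 and 6.58. Only a narrow gap lay between them, since the bright PRELP probe set read only 6.74 to 6.84 while BGN and FMOD reached 6.58. Detection calls were not used here, so whether these 16 probe sets hold any transcript signal was not assessed.

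**Figure D1:**
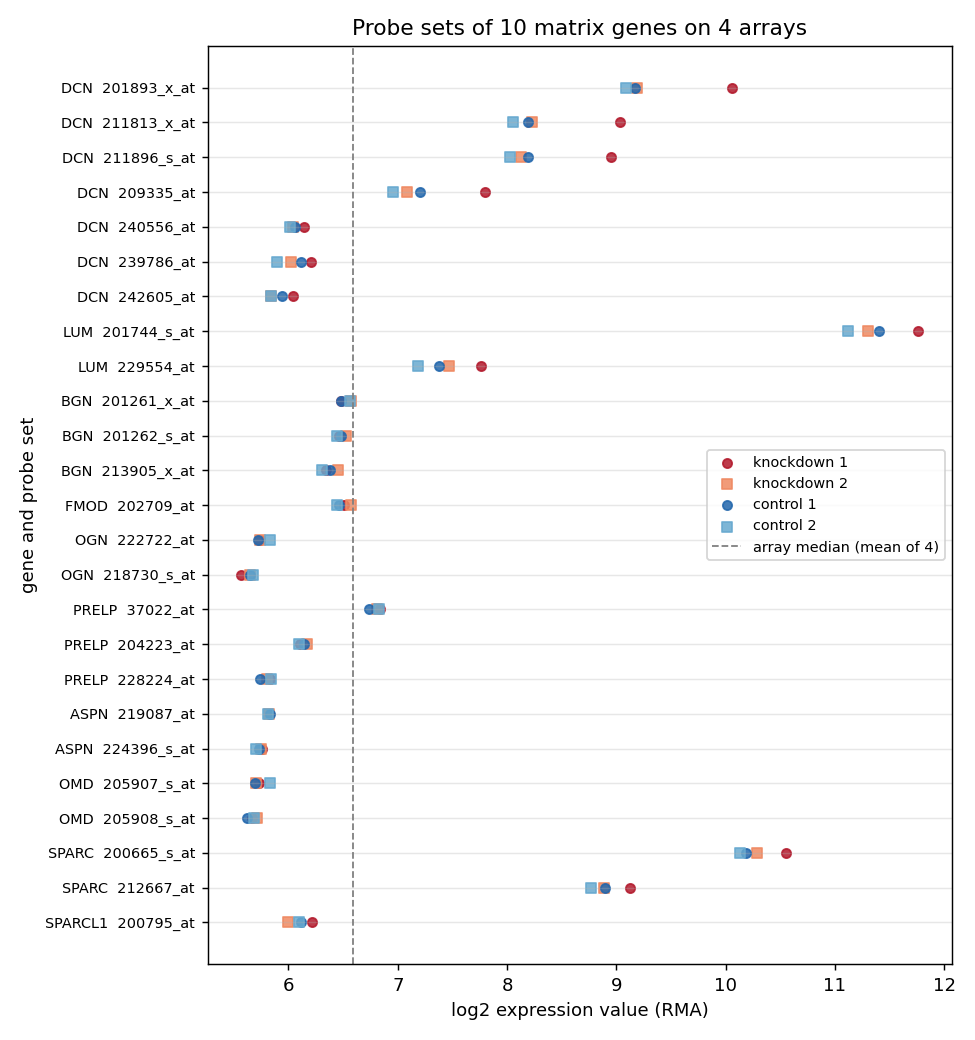
Log2 expression value (horizontal axis) of the 25 probe sets of the 10 matrix genes (rows) on the 2 knockdown arrays and the 2 control arrays, 1 point per array, with a dashed line at the mean of the 4 array medians. DCN, LUM and SPARC reach 10.06, 11.76 and 10.55 on knockdown array 1, which is the rightmost point in their rows, whereas 16 probe sets lie left of the line.

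DCN encodes decorin, which wraps collagen fibrils and binds TGF-beta. Its brightest probe set (201893_x_at) had 10.06 and 9.19 on the knockdown arrays, against 9.17 and 9.09 on the controls. Knockdown array 1 stood well apart, while knockdown array 2 exceeded the higher control array by only a few hundredths. The means were 9.62 ± 0.61 in knockdown and 9.13 ± 0.057 in control cells (SD, n = 2 each), a difference of 0.50 ± 0.23 (SE). From the spread of these 4 values alone the SE was 0.43, close to the size of the difference. Without knockdown array 1 the difference was 0.064. Set against the control mean, the signal was 1.90-fold on knockdown array 1 and 1.05-fold on knockdown array 2.

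The other bright DCN probe sets repeated this shape. Probe set 211813_x_at had 9.03 and 8.22 on the knockdown arrays, against 8.20 and 8.05 on the controls. Probe set 211896_s_at had 8.95 and 8.13 on the knockdown arrays, against 8.20 and 8.02 on the controls. Probe set 209335_at had 7.80 and 7.08 on the knockdown arrays, against 7.20 and 6.96 on the controls. In the last 2 of these, knockdown array 2 lay between the control arrays, so the groups overlapped. Differences over the 4 bright DCN probe sets ran from 0.36 to 0.50, and without knockdown array 1 they ran from 0.0026 to 0.10. The 3 remaining DCN probe sets read between 5.84 and 6.20, below the array median, with differences of 0.053 to 0.11, and knockdown array 1 was the highest array for each. Probe sets of 1 gene share their RNA and are not replicates of it.

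The gap between the knockdown arrays placed DCN near the top of the whole table. Knockdown 1 minus knockdown 2 was 0.86, 0.81, 0.83 and 0.72 for the 4 bright DCN probe sets, which ranked 2, 4, 3 and 10 of 54613 in this gap. Control 1 minus control 2 was 0.080, 0.14, 0.17 and 0.24 for the same probe sets. The spread within the knockdown group was thus larger than the difference between the group means.

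LUM encodes lumican, the keratan sulfate proteoglycan that keeps corneal collagen evenly spaced. Its brighter probe set (201744_s_at) had 11.76 and 11.31 on the knockdown arrays, against 11.40 and 11.12 on the controls. The groups overlapped, because control array 1 was above knockdown array 2. The means were 11.53 ± 0.32 in knockdown and 11.26 ± 0.20 in control cells (SD, n = 2 each), a difference of 0.27 ± 0.14 (SE) that was 0.043 without knockdown array 1 and 0.13 without control array 2. The SE from its own 4 values was 0.27. Its second probe set (229554_at) had 7.76 and 7.47 on the knockdown arrays, against 7.37 and 7.19 on the controls, with no overlap. That difference was 0.33 ± 0.10 (SE; 0.17 from its own 4 values) and 0.19 without knockdown array 1. In both probe sets the replicate numbered 1 was the higher array of each group, by 0.46 and 0.29 in knockdown and by 0.28 and 0.19 in control cells. This order was not particular to LUM. Over all 11 probe sets of DCN, LUM and SPARC, array 1 exceeded array 2 by 0.10 to 0.86 in knockdown and by 0.043 to 0.28 in control cells.

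SPARC, osteonectin, is the member whose brightest probe set followed LUM in the size of its difference. Its brighter probe set (200665_s_at) had 10.55 and 10.29 on the knockdown arrays, against 10.18 and 10.14 on the controls. Both knockdown arrays were above both control arrays, and knockdown array 1 was the higher of them. The means were 10.42 ± 0.18 in knockdown and 10.16 ± 0.035 in control cells (SD, n = 2 each), a difference of 0.26 ± 0.084 (SE; 0.13 from its own 4 values) that was 0.13 without knockdown array 1. Relative to the control mean, the signal was 1.31-fold on knockdown array 1 and 1.09-fold on knockdown array 2. The second probe set (212667_at) had 9.12 and 8.88 on the knockdown arrays, against 8.90 and 8.77 on the controls. Here knockdown array 2 fell between the control arrays, and the difference was 0.17 ± 0.085 (SE; 0.14 from its own 4 values) or 0.049 without knockdown array 1 and 0.10 without control array 2.

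**Figure D2:**
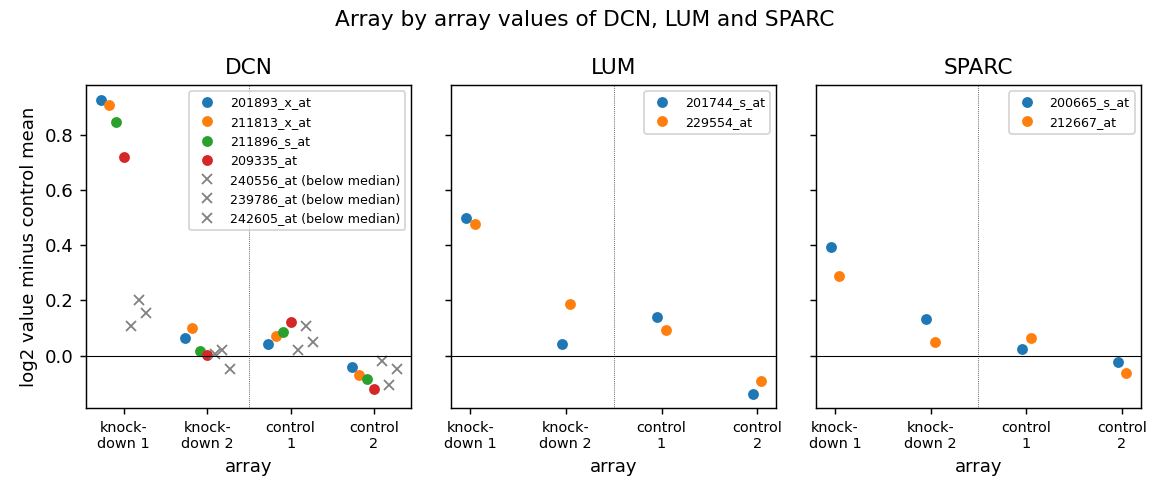
Log2 value minus the mean of the 2 control arrays (vertical axis) for each probe set of DCN, LUM and SPARC on each array (horizontal axis), with dots for probe sets above the array median and crosses for those below it. Knockdown array 1 is the highest array for all 11 probe sets, from 0.72 to 0.93 for the 4 bright DCN probe sets, while knockdown array 2 runs from -0.049 to 0.19 over the same 11.

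SPARCL1, known in brain as hevin, is placed beside SPARC as its relative. Its single probe set had 6.21 and 5.99 on the knockdown arrays, against 6.11 and 6.09 on the controls, all below the array median. The control values lay between the knockdown values, and the difference was -0.0028 ± 0.076 (SE). Knockdown 1 minus knockdown 2 was 0.22, against 0.26 for the brighter SPARC probe set.

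BGN, biglycan, is the closest relative of decorin and likewise binds TGF-beta. Its 3 probe sets read between 6.31 and 6.58, with differences of 0.0094 to 0.050, and all 3 had overlapping groups. Unlike DCN, knockdown array 1 was the lower knockdown array for each, by 0.063 to 0.11. The brightest (201261_x_at) had 6.48 and 6.58 on the knockdown arrays, against 6.48 and 6.56 on the controls. ASPN encodes asporin, a relative of both that is rich in aspartate and known from cartilage. Its brighter probe set had 5.82 and 5.82 on the knockdown arrays, against 5.83 and 5.81 on the controls, with equal means. The other ASPN probe set differed by 0.039 ± 0.051 (SE), with no overlap between groups.

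Among the keratan sulfate relatives of lumican, FMOD (fibromodulin, which binds collagen beside lumican) had 6.51 and 6.58 on the knockdown arrays, against 6.47 and 6.44 on the controls. These groups did not overlap, and the difference of 0.088 ± 0.054 (SE) was 0.12 without knockdown array 1. PRELP, prolargin, which links collagen to heparan sulfate chains, had 6.84 and 6.81 on the knockdown arrays, against 6.74 and 6.83 on the controls at its brightest probe set. Its 3 probe sets differed by 0.016 to 0.043, and their groups overlapped. OMD, osteomodulin, a bone proteoglycan, differed by -0.043 ± 0.062 (SE) and 0.034 ± 0.054 (SE) at its 2 probe sets, which disagreed in sign. OGN, osteoglycin, was below control at both probe sets, by -0.041 ± 0.058 and -0.050 ± 0.055 (SE), with overlapping groups.

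Across the members, 0 of 25 probe sets passed the adjusted threshold (limma), where 0.00183% of all probe sets did. At an unadjusted p under 0.05 there were 3 higher and 0 lower, 1 each of DCN, LUM and SPARC, where 3.72% of all probe sets were higher and 4.12% lower. The knockdown mean was above control for 20 of 25, below it for 4 and equal for 1, where 49.8% of all probe sets were above. The groups did not overlap for 6, all higher (17.7% of all probe sets, and 19.8% lower). Knockdown array 1 was the highest of the 4 arrays for 14, where it was so for 26.6% of all probe sets. The contrast helped to choose these genes, so nothing is read from these counts. The median difference was 0.050 over the 25 probe sets, 0.33 over the 9 above the array median and 0.029 over the 16 below it, against 0.00 over all probe sets. Without knockdown array 1 the knockdown mean was above control for 19 of 25 (49.9% of all), at a median of 0.036.

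**Figure D3:**
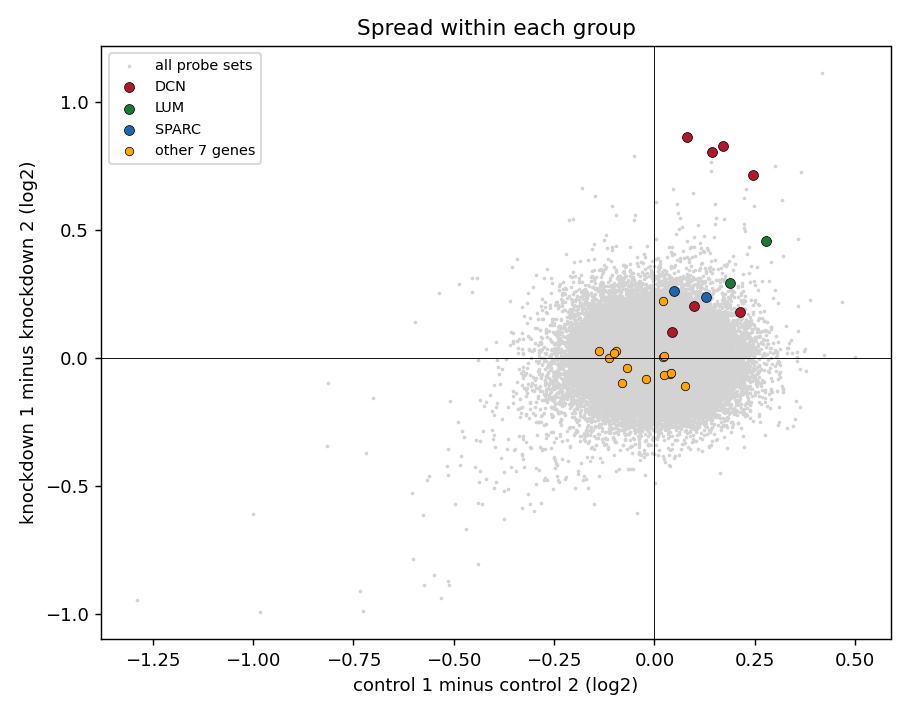
Difference between the 2 arrays of each group for every probe set (grey), control 1 minus control 2 on the horizontal axis and knockdown 1 minus knockdown 2 on the vertical axis, both in log2 units. The 4 bright DCN probe sets stand at 0.72 to 0.86 on the vertical axis, LUM at 0.29 and 0.46, SPARC at 0.24 and 0.26, and the other 7 genes lie between -0.11 and 0.22.

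Most of the proteoglycan members lie in runs of neighbouring genes. In RefSeq (GRCh38.p14), EPYC, KERA, LUM and DCN are neighbours on chromosome 12 with 0 other protein-coding genes between them. LUM and DCN had probe sets above the array median on all 4 arrays, whereas those of EPYC and KERA were below it on all 4. KERA, the corneal proteoglycan keratocan, had 5.60 and 5.72 on the knockdown arrays, against 5.56 and 5.60 on the controls. OGN, OMD, ASPN and ECM2 form a similar run on chromosome 9, and the representative probe sets of all 4 were below the median on all arrays. On chromosome 1, FMOD, PRELP and OPTC are neighbours, of which PRELP was above it.

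Genes that act with these proteins were examined through 7 lists holding 132 measured genes, each represented by its brightest probe set. With limma, 0 passed in either direction (0.00183% of all probe sets passed), and 2 were higher and 8 lower at an unadjusted p under 0.05, where 3.72% of all probe sets were higher and 4.12% lower. These shares count every probe set and not the brightest of each gene, so the 2 sets are unlike. The median gene of the array was at -0.0094 and 44.3% of 19775 genes were above control. The other small leucine-rich proteoglycans (9 measured, 6 above and 3 below control, 0 passed) had a median of 0.014, with KERA at 0.081 (limma, adjusted p = 0.78) and PODNL1, podocan-like 1, at 0.066 (0.83). KERA was at 0.022 without knockdown array 2 and 0.14 without knockdown array 1. PODNL1 was at 0.021 without control array 2, 0.033 without knockdown array 2, 0.098 without knockdown array 1 and 0.11 without control array 1. The other SPARC family genes (6 measured, 3 above and 3 below, 0 passed) had a median of 0.027. SPOCK1, testican 1, a proteoglycan made by neurons, had 10.15 and 10.22 on the knockdown arrays, against 10.56 and 10.40 on the controls. Its difference of -0.30 ± 0.067 (SE; limma, adjusted p = 0.58) was opposite in sign to that of SPARC and ran from -0.38 to -0.22 with 1 array left out. SPOCK2 was at -0.12 (limma, adjusted p = 0.64), between -0.14 and -0.099 with 1 array left out, though its other probe set was at 0.059.

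Fibril-forming collagens and their cross-linking enzymes, the partners of decorin and lumican, had a median of 0.0010 (20 measured, 11 above and 9 below, 0 passed). COL3A1 had 9.46 and 9.02 on the knockdown arrays, against 8.82 and 8.77 on the controls. Its difference was 0.44 ± 0.12 (SE; limma, adjusted p = 0.60), with an SE of 0.22 from its own 4 values, and was 0.23 without knockdown array 1, and its 5 probe sets ran from 0.0021 to 0.44. Knockdown array 1 was its highest array, as for the 9 bright member probe sets. PLOD3, a lysyl hydroxylase, was at -0.15 (limma, adjusted p = 0.63), but at -0.076 without control array 1 and -0.23 without control array 2. The enzymes that build chondroitin, dermatan and keratan sulfate chains had a median of 0.00 (27 measured, 14 above and 13 below, 0 passed). The sulfotransferases CHST7 and CHST11 were at -0.17 (limma, adjusted p = 0.60) and -0.13 (0.63), and 1 of 3 CHST11 probe sets was above control. With 1 array left out CHST7 ran from -0.20 to -0.13, and CHST11 from -0.17 without knockdown array 1 to -0.089 without knockdown array 2.

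Growth factors and receptors that these proteins bind had a median of -0.0043 (26 measured, 11 above and 15 below, 0 passed). BMP2, a bone morphogenetic protein, was at 0.22 ± 0.052 (SE; limma, adjusted p = 0.58), and ran from 0.19 to 0.24 with 1 array left out. ERBB4, a receptor tyrosine kinase that decorin can engage, was at -0.26 ± 0.077 (SE; limma, adjusted p = 0.60), and 1 of its 4 probe sets was at 0.040. The SE from its own 4 values was 0.11. ERBB4 read 6.53 and 6.38 on the knockdown arrays, against 6.63 and 6.80 on the controls, near the array median. It ran from -0.34 to -0.17 with 1 array left out, the smallest without control array 2. Proteinases had a median of 0.037 (17 measured, 12 above and 5 below, 0 passed), with BMP1, which trims proteoglycan propeptides, at -0.12 (limma, adjusted p = 0.64) and HTRA1, a serine proteinase, at 0.12 (0.67). Probe sets of BMP1 disagreed in sign, 4 of 7 being above control. With 1 array left out BMP1 ran from -0.15 to -0.089, and HTRA1 from 0.064 without control array 2 to 0.18 without control array 1. Other matrix glycoproteins and large proteoglycans had a median of 0.056 (27 measured, 18 above and 9 below, 0 passed). FBLN2, fibulin 2, was at 0.11 (limma, adjusted p = 0.65) and the basement membrane collagen gene COL4A2 at 0.16 (0.67). With 1 array left out FBLN2 ran from 0.094 to 0.12, and COL4A2 from 0.042 without control array 2 to 0.27 without control array 1.

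**Figure D4:**
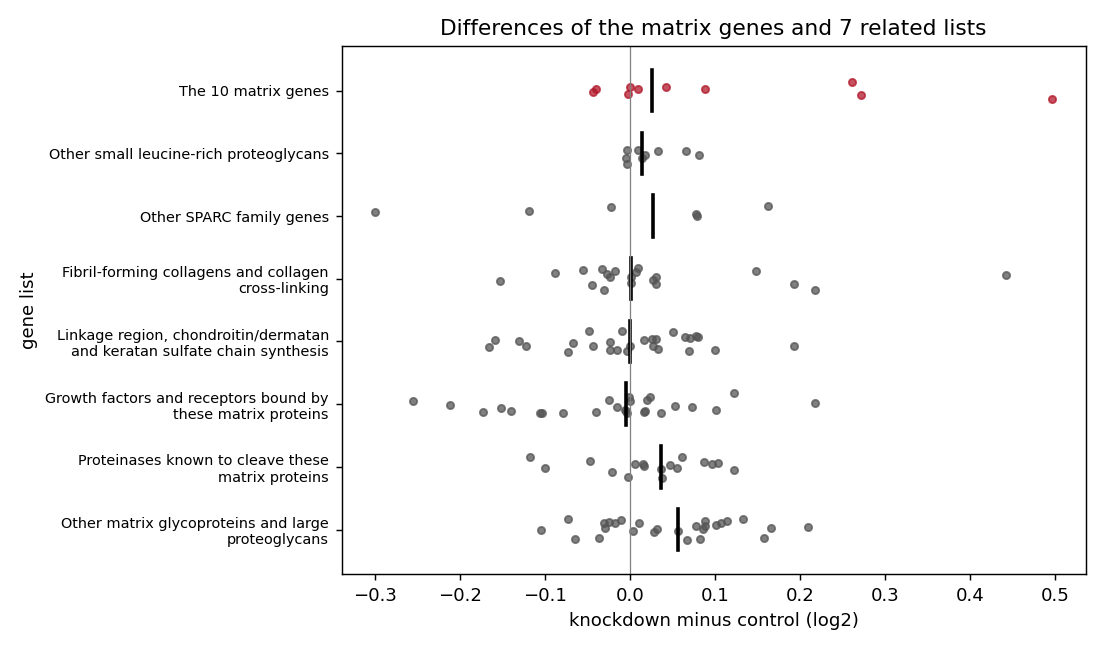
Knockdown minus control (log2, horizontal axis) for the 10 matrix genes (red) and the genes of 7 related lists (grey), 1 point per gene at its brightest probe set, with a bar at each median. DCN at 0.50 and COL3A1 at 0.44 lie farthest right, SPOCK1 at -0.30 lies farthest left, and the list medians lie between -0.0043 and 0.056.

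The members were left out of the search for genes like SPARC, so DCN and LUM could not appear in it. Among the genes searched, those most like SPARC over the 4 arrays were NDST1, TFPI2, COL3A1, GJA1 and TPM4, with Pearson's r of 0.9994, 0.9988, 0.9986, 0.9985 and 0.9980. NDST1 is a heparan sulfate sulfotransferase, TFPI2 a secreted proteinase inhibitor, GJA1 the gap junction protein connexin and TPM4 a tropomyosin. These come from 4 arrays and from 203 genes with a range of at least 0.42, of which 36 exceeded 0.95, and are a description of 4 points per gene.

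Markers of other cells were set beside these values. The summed linear level of the 13 fibroblast markers was 9016 and 8297 on the knockdown arrays, against 8597 and 7997 on the controls, so the groups overlapped. Their median difference was 0.089, with 10 above and 3 below control, and it was 0.097 on knockdown array 1 and 0.042 on knockdown array 2. COL1A1, COL1A2 and COL3A1 are also in the collagen list, PDGFRA and PDGFRB in the growth factor list, and FBN1 and POSTN in the glycoprotein list. Differences of these 13 ran from -0.068 for DPT to 0.44 for COL3A1, and 9 were above the array median on all 4 arrays. FAP and POSTN, markers of activated fibroblasts, were below the array median on all 4 arrays. PDGFRA, the brightest of the 13 and so the largest part of the sum, read 11.99 and 11.95 on the knockdown arrays, against 12.03 and 11.91 on the controls. Those values are from its brightest probe set, and the differences of its 4 probe sets ran from 0.0003 to 0.38. Schwann cell markers summed to 520 and 527 in knockdown and 515 and 514 in control cells, with no overlap. Endothelial markers summed to 487 and 502 in knockdown and 492 and 495 in control cells, with overlap. Macrophage markers summed to 391 and 395 in knockdown and 385 and 379 in control cells, with no overlap. In these 3 lists only 2 of 6, 1 of 6 and 1 of 5 markers were above the array median on all 4 arrays, so the sums come mostly from dim probe sets. Noradrenergic markers summed to 35610 and 35204 in knockdown and 37188 and 37608 in control cells, with no overlap. Of the 10 measured, 3 were above and 7 below control, from -0.35 for DBH to 0.115 for TH. DBH, the noradrenaline-making enzyme, was lowest on knockdown array 1, at 11.66 at its brighter probe set. The other of its 2 probe sets was above control, at 0.037. The part of these markers in the values of DCN, LUM and SPARC was not tested.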

How the data were processed

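RNA of 4 SH-SY5Y samples (2 TSPAN8 knockdown, 2 control), 100 ng each, was hybridised to 1 array per sample. The deposited values are log2 expression per probe set; RMA and R 3.0.1 are named, without settings, per the submitters' processing notes. No genome build or detection call is given in the sources used here. RMA compresses differences near background, and the number of arrays limits the precision. The 62 AFFX controls were left out of 54675 probe sets. Probe sets were named through the platform annotation (41091 with 1 gene, 1801 with several, 11721 not listed), and all 10 members matched RefSeq symbols. A gene's representative, or brightest, probe set has the highest mean over the 4 arrays.

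Groups were compared with limma 3.58.1 (R 4.3.3, lmFit and eBayes, no covariates, two-sided, Benjamini-Hochberg over 54613 probe sets, threshold 0.05). The code was run on simulated data with equal spread in both groups, no outlying array and changes larger than any member difference. That run therefore does not bear on the member differences. Standard errors are limma's moderated ones unless given as from a gene's own 4 values, and figures used Python 3.11.15 and matplotlib 3.10.9. The named genes are TSPAN8, all members, the 2 genes per list with the smallest p, and the 5 genes outside the members most like SPARC. Other names come from the marker lists. Members and lists were chosen with earlier results of these data known. Alternatives were other normalizations, filters, variance models, array weights, a replicate block and leaving out each array.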

Additional observations from a re-analysis of the deposited data

How the results depend on the processing

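Of 54613 probe sets 1 passed, and 1 passed after a second quantile normalization, median centring, a filter on signal, a trended robust variance, array weights or a threshold of 0.10. With the replicate number as a block 0 passed. Over all probe sets, the deviations of equal replicate numbers from their group means correlated at 0.051. For all 11 probe sets of DCN, LUM and SPARC, array 1 was above array 2 in both groups. No label pairs equal numbers or says whether they shared a culture or day, so a pairing was not settled. With 1 array left out the count ran from 1 to 1026 (25 without knockdown array 1 and 1026 without knockdown array 2). Such fits take the spread of a lone array from the other group, so its own deviation cannot be told from the knockdown. Without knockdown array 2, 8 member probe sets passed, all of DCN, LUM and SPARC, and in every other setting run 0 did.

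The median member difference of 0.050 was 0.33 among probe sets above the median signal, where fewer members remain, and 0.026 over 1 probe set per gene, and ran from 0.036 to 0.078 with 1 array left out. The count of member probe sets above control, re-examined after seeing the data, was 19 to 21 under all alternatives run. Of 84 alternative values for single genes 16 changed sign or left 0, none of them for DCN, LUM or SPARC. With 1 array left out DCN ranged from 0.064 to 0.93, LUM from 0.043 to 0.50 and SPARC from 0.13 to 0.39. The filter on signal gave no value for genes whose brightest probe set fell below it. List medians without knockdown array 1 ran from -0.040 for collagens to 0.035 for proteinases. The cause was not tested.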

Other observations

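The probe sets of single genes on which knockdown array 1 exceeded the highest of the other 3 arrays by the most included, besides DCN, those of MEGF10, GPNMB, ID4, PTN, SOX9 and GREM1, named here after their values were seen. MEGF10, an engulfment receptor of glia and muscle precursors, had 8.97 and 7.85 on the knockdown arrays, against 7.96 and 7.55 on the controls. PTN, the heparin-binding growth factor pleiotrophin, had 12.04 and 11.38 on the knockdown arrays, against 11.25 and 11.21 on the controls. ID4, an inhibitor of DNA binding, had 7.93 and 7.20 on the knockdown arrays, against 7.26 and 7.12 on the controls. For MEGF10, PTN and ID4 these values are from the probe set with the largest such excess, not always the brightest. A brighter ID4 probe set had 10.59 and 9.84 on the knockdown arrays, against 9.95 and 9.65 on the controls. Of the 26 probe sets at least 0.5 above the other arrays on knockdown array 1, 4 were members, all of DCN.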
